A study of Mus musculus with 48 samples.

Results

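Human oncostatin M (hOSM) was compared with leukemia inhibitory factor (mLIF in the sample titles) in primary osteoblasts from mouse calvaria, the cells that lay down bone in the skull. All 12 arrays titled hOSM and all 12 titled mLIF, of 48 bead arrays in the series, were taken and matched by genotype, time and replicate number into 12 pairs. The cells came from Osmr KO mice, which lack the OSM receptor gene, and from wild-type (WT) mice, both on a C57BL/6 background, and had been frozen, thawed and differentiated for 17 days. Each ligand was given at 10 ng/ml and RNA was taken after 1 h or 6 h, so that every combination of ligand, genotype and time had 3 arrays. Mouse OSM (mOSM) and control groups of the same size were used beside them.

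OSM and LIF belong to the interleukin 6 family of cytokines, which signal through the shared chain gp130 (gene Il6st) paired with another receptor chain. LIF pairs gp130 with the LIF receptor (gene Lifr), whereas mOSM can also use the receptor encoded by Osmr, and both complexes activate JAK kinases and the transcription factor STAT3. In bone these cytokines act on osteoblasts and osteocytes and, through RANKL, on osteoclasts. The study's design names the LIF receptor as the route of both hOSM and mLIF in mouse cells, so the pairs ask how nearly the same changes in expression they gave. The labels disagree on the LIF itself, mouse by the titles and design text and human by the treatment protocol, which touches every value below. No source used here describes the KO allele, the number of animals or whether replicates came from separate animals, and the tests can therefore only weigh differences against the spread between these cultures, which may be technical. With the 1 h and 6 h arrays of a genotype and replicate number taken as one culture, the 12 pairs came from 6 cultures, and a test over pairs treats both times of a culture as independent.

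Osmr separated the genotypes with both ligands. In KO cells it was at 7.67 ± 0.72 with hOSM and at 7.64 ± 0.75 with mLIF on the log2 scale, and in WT cells at 10.76 ± 0.58 with hOSM and at 10.76 ± 0.60 with mLIF (SD, n = 6 arrays each). The probe was above background on all of these arrays, and whether it lies inside the deleted stretch is not known. Of 9 osteoblast genes with a probe 6 were detected on all 24 arrays, among them Sp7, Alpl and the type I collagen genes Col1a1 and Col1a2, and 1, Dlx5, on none. The labels call the cells osteocytes, and of 11 osteocyte genes 5 were detected on all 24 arrays (Pdpn, Phex, Cd44, Ank and Irx5) and 3 on none (Sost, Fgf23 and Dkk1), with Dmp1 on 3 and Mepe on 5. Of 13 adipocyte markers 5 were on all arrays and 1, Retn, on none, with Adipoq on 20 and Fabp4 on 4. Of 11 macrophage and osteoclast markers 4 were on all arrays, Lyz2 among them, and 1, Acp5, on none. Of 10 cartilage markers 3 were on all arrays, Col2a1 among them, and 2, Col10a1 and Matn3, on none. The mean log2 level of the adipocyte list ran from 6.82 to 9.43 with hOSM and from 6.95 to 9.54 with mLIF, and that of the macrophage and osteoclast list from 6.83 to 9.98 with both ligands. Fewer cells of a type and less RNA per cell cannot be told apart in such bulk samples. Cultures of KO replicate 3 stood apart, with a mean correlation of 0.927 to the other KO cultures of the same group, where the other 5 cultures had 0.955 to 0.97.

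In limma on the 12 paired log2 differences, 0 of 10739 genes (0%) differed between hOSM and mLIF at an adjusted p under 0.05, and the smallest adjusted p was 0.999. An unadjusted p under 0.05 was reached by 380 genes (3.54%), and 238 of these were lower with hOSM (2.22% of genes). The mean difference was over 2-fold for 0 genes, and its absolute value had a median of 0.056 and a 95th percentile of 0.20 on the log2 scale. A p that misses the threshold does not show that values are alike, so each gene was also tested for equivalence, by a pair of one-sided tests against a margin of 1.5-fold on either side. By that test 10635 genes (99.0%) were equivalent, as were 8964 of the 9048 genes detected on at least 12 of the 24 arrays (99.1%). With a narrower margin of 0.32 on the log2 scale 8758 genes (81.55%) were, and with 2-fold 10734 (99.95%). With the differences of each culture averaged over both times, 0 genes differed over the 6 cultures in limma (447 unadjusted, smallest adjusted p 0.997) and 10659 (99.3%) were equivalent. Without the KO replicate 3 cultures 0 genes differed and 10564 were equivalent.

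**Figure D1:**
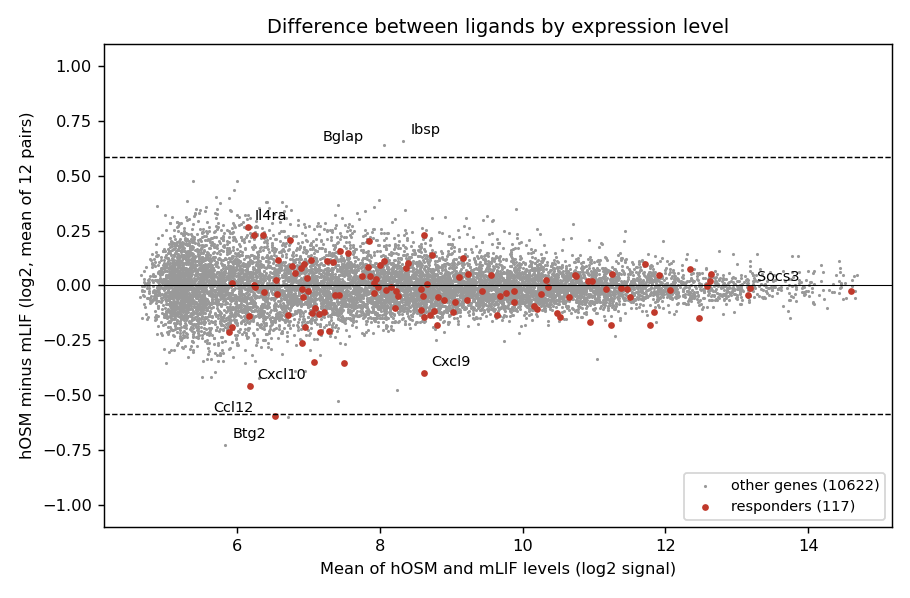
Difference between hOSM and mLIF (vertical axis, log2, mean of 12 pairs) against the mean level of both (horizontal axis, log2 signal) for 10739 genes, with the 117 responders in red, the others in grey and the 1.5-fold margins dashed. The mean difference is past the margin for 5 genes, Btg2, Kdelr1 and Ccl12 below 0 and Ibsp and Bglap above.

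Genes that answered to the ligands were examined as a group. Responders were chosen on the mean of hOSM and mLIF minus the control of the same genotype, time and replicate number, a contrast that leaves the difference between the ligands free, with an adjusted p under 0.05 in limma and a change over 2-fold. At that p alone 1165 genes passed (10.8%), 572 higher (5.33%) and 593 lower (5.52%) than in controls. With the fold added, 117 genes (1.09%) were responders, 114 higher and 3 lower. Of these 117, 114 (97.4%) were equivalent between hOSM and mLIF, against 99.0% of all genes. Their median difference was -0.021, against -0.0081 over all genes, and their median absolute response was 1.4 with hOSM and 1.44 with mLIF. An unadjusted p under 0.05 was reached by 12 (10.3%), against 3.54% of all genes, 10 of them lower with hOSM.

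Of 18 targets of STAT3 and inhibitors of gp130 signalling, 15 rose with hOSM and 15 with mLIF, where 436 and 388 of all 10739 genes did. Socs3, which blocks gp130 signalling as feedback, ranged from 11.93 to 14.55 with hOSM (median 13.34) and from 11.79 to 14.38 with mLIF (median 13.55), against 8.64 to 11.60 in controls (median 9.73, 12 arrays each). Every array of both ligands lay above every control, and the ligands covered nearly the same range. Socs3 rose by 3.42 ± 0.17 with hOSM and by 3.43 ± 0.18 with mLIF (SE, limma adjusted p = 1.8e-08 and 3e-08), and the ligands differed by -0.01 ± 0.06 (95% interval -0.13 to 0.11, equivalence adjusted p = 3.4e-07). The promoter of Socs3 in RefSeq (GRCm38.p6, chr11:117969317-117969616, minus strand) is shown because this gene rose most among the feedback genes. The capitals mark its 1 match to TTCNNNGAA, the core letters of a STAT site, which reads the same on both strands:
Socs3: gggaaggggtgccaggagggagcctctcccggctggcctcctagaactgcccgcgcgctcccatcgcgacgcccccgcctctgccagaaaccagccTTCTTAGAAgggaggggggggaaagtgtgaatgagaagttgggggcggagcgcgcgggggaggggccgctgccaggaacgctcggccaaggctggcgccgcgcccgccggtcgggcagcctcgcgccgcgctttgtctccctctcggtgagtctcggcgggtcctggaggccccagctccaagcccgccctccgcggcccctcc

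That motif was found in 8.30% of all 32851 promoter windows (250 bases before to 50 after a start). Among the 11166 windows of genes tested it was in 6.93%. It was in 21.6% of the 111 windows of the 90 responders with an entry, a description of letters and not of binding. The windows of Bcl3 and Junb, also among the 18 targets, had 0 matches. Bcl3, a cofactor of NF-kappaB that STAT3 induces, was at 6.98 to 8.64 with hOSM (median 7.79) and at 6.28 to 8.93 with mLIF (median 7.75), against 5.09 to 6.53 in controls (median 5.46). The hOSM arrays lay above all controls, the mLIF arrays overlapped them slightly, and the ligands differed by 0.04 ± 0.09. Cish, another feedback inhibitor, rose by 1.71 ± 0.34 with hOSM and by 1.66 ± 0.35 with mLIF. Socs1, of the same family, rose by 1.81 ± 0.32 with hOSM and by 1.78 ± 0.31 with mLIF. Both rises were larger at 1 h than at 6 h. In WT cells with hOSM, Cish was at 11.91 against 8.93 in controls at 1 h and at 9.27 against 9.03 at 6 h. Socs1 was at 8.59 against 5.43 at 1 h and at 5.63 against 5.02 at 6 h. The transcription factor gene Stat3 rose by 0.47 ± 0.10 with hOSM and by 0.48 ± 0.10 with mLIF. In the list of 18 genes for STAT3 and its feedback, 17 were equivalent (99.0% of all genes were), 6 were lower with hOSM (54.0% of all genes) and the median difference was 0.04. The mean response rose for 15 of the 18 and fell for 1, against 5.33% and 5.52% of all genes. Cebpd, a transcription factor, was in neither response past the threshold but was higher with hOSM in 10 of 12 pairs (0.21 ± 0.07, unadjusted p = 0.0063, limma adjusted p = 0.999). The member that was not equivalent was Il4ra, the interleukin 4 receptor chain, at 0.27 ± 0.21 (interval -0.18 to 0.71), detected on 10 hOSM, 10 mLIF and 1 control arrays.

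Among receptors of the family, Il6st rose by 0.92 ± 0.19 with hOSM and by 0.83 ± 0.22 with mLIF (limma adjusted p = 0.0080 and 0.040). Osmr rose by 0.84 ± 0.14 with hOSM and by 0.83 ± 0.14 with mLIF, while Lifr was at -0.07 ± 0.09 with hOSM and -0.07 ± 0.10 with mLIF relative to controls. The ligands differed by 0.09 ± 0.13 for Il6st, 0.01 ± 0.06 for Osmr and 0.00 ± 0.08 for Lifr. All 10 receptors and ligands of the family that were tested were equivalent, against 99.0% of all genes, and 6 of them were lower with hOSM, against 54.0%, so both counts lie near the shares over all genes.

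**Figure D2:**
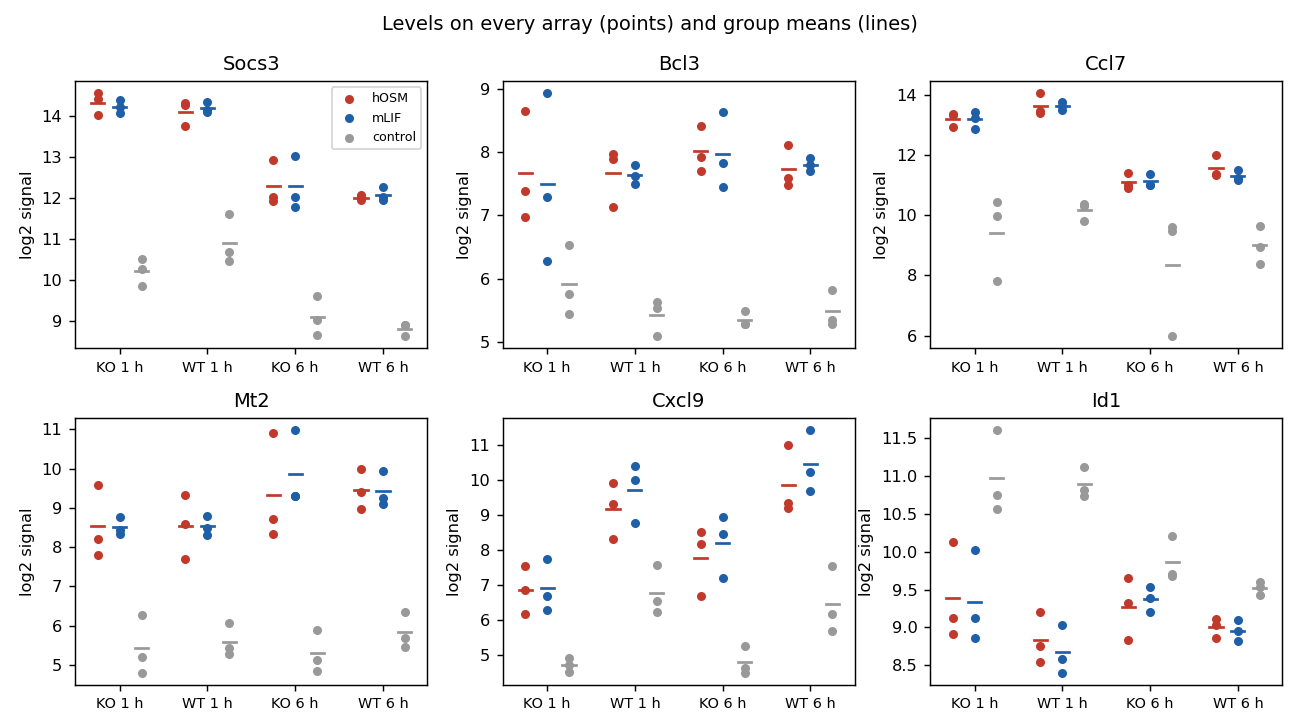
Log2 signal of Socs3, Bcl3, Ccl7, Mt2, Cxcl9 and Id1 on every array (points) with group means (lines), 3 arrays per group, for hOSM, mLIF and control by genotype and time. For each gene the hOSM and mLIF points overlap in each of the 4 sets, and both stand clear of the controls except mLIF for Bcl3 in KO cells at 1 h.

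Factors that act on osteoclasts and on bone were examined next. Tnfsf11, the gene of RANKL, on which osteoclast formation depends, was at 6.12 to 9.39 with hOSM (median 7.93) and at 6.09 to 9.55 with mLIF (median 7.70), against 5.04 to 7.55 in controls (median 5.69). The ranges of the ligands were nearly the same and overlapped that of the controls. Tnfsf11 was higher with hOSM in 10 of 12 pairs, by 0.20 ± 0.08 (unadjusted p = 0.020, limma adjusted p = 0.999), and equivalent within the margin (adjusted p = 0.00011). The decoy receptor of RANKL, Tnfrsf11b, differed by 0.03 ± 0.08 between the ligands. Of 13 osteoclast-regulating factors all 13 were equivalent, against 99.0% of all genes, with a median difference of 0.0027, against -0.0081. Id1, a target of bone morphogenetic proteins, fell by 1.19 ± 0.18 with hOSM and by 1.23 ± 0.20 with mLIF. Egr3, a transcription factor, and Edn1, the peptide endothelin, were the other 2 responders that fell. Edn1 fell by 1.11 ± 0.16 with hOSM and by 0.92 ± 0.12 with mLIF, a difference of -0.19 ± 0.09.

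Acute phase and metal-binding genes gave some of the highest responses. Mt2, a metallothionein, was at 7.69 to 10.92 with hOSM (median 8.84) and at 8.31 to 10.99 with mLIF (median 8.94), against 4.80 to 6.35 in controls (median 5.46), which were above background on 5 of 12 arrays. Both ligands lay above all controls, and they differed by -0.12 ± 0.14, with -0.36 in the 8 pairs of the first thaw date and 0.36 in the 4 of the second. Mt1, detected on every array, rose by 1.84 ± 0.09 with hOSM and by 1.87 ± 0.09 with mLIF. Serpina3f, a protease inhibitor, was above background on 0 of 12 control arrays and on all 24 ligand arrays, so its response is at least 2.44 on the log2 scale, and the ligands differed by -0.02 ± 0.08. Of 11 such genes 10 were equivalent, against 99.0% of all genes, and the complement factor gene Cfb was not (0.38 ± 0.21).

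Chemokines held both close and wide differences. Ccl7, which draws monocytes, was at 10.91 to 14.06 with hOSM (median 12.46) and at 11.00 to 13.76 with mLIF (median 12.19), against 5.99 to 10.45 in controls (median 9.63), a difference of 0.08 ± 0.06. Ccl2 and Cxcl1, for monocytes and neutrophils, differed by 0.03 ± 0.12 and 0.03 ± 0.11. Of 14 chemokines and mediators tested, 11 rose in the mean response, against 5.33% of all genes. Of the 14, 13 were equivalent and 8 were lower with hOSM, near the 99.0% and 54.0% of all genes, with a median difference of -0.0033.

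Cxcl9, a T cell chemokine that interferon gamma induces, had the smallest p of all genes over the 12 pairs. It was at 6.16 to 11.01 with hOSM (median 8.41) and at 6.29 to 11.43 with mLIF (median 8.86), against 4.50 to 7.57 in controls (median 5.47). The ranges of the ligands overlapped, but within pairs Cxcl9 was lower with hOSM in 11 of 12, by -0.40 ± 0.08 (interval -0.57 to -0.24, unadjusted p = 0.00011, limma adjusted p = 0.999). It was lower in 6 of 6 cultures (limma adjusted p = 0.997 over the culture averages). An exact two-sided sign-flip permutation test over these gave an unadjusted p = 0.0312, the smallest possible with 6. Cxcl9 was named by its p in these same pairs, so that test adds no independent support. The difference was -0.33 at the first thaw date and -0.55 at the second. Its equivalence (adjusted p = 0.016) was lost under 7 alternatives, among them leaving out the KO replicate 1 cultures (0.056) or the KO replicate 2 cultures (0.055). Ccl12 and Cxcl10 were, with Il4ra, the 3 responders that were not equivalent. Ccl12, a monocyte chemokine, differed by -0.59 ± 0.17 (lower with hOSM in 11 of 12 pairs), at -0.74 for the first thaw date and -0.29 for the second. It was above background on 7 hOSM and 9 mLIF arrays. Its lowest pair was at -2.39, and leaving out 1 pair or culture gave means from -0.71 to -0.42. Cxcl10, a relative of Cxcl9, differed by -0.46 ± 0.20, at -0.18 for the first thaw date and -1.02 for the second, and was above background on 6 hOSM, 7 mLIF and 1 control arrays.

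**Figure D3:**
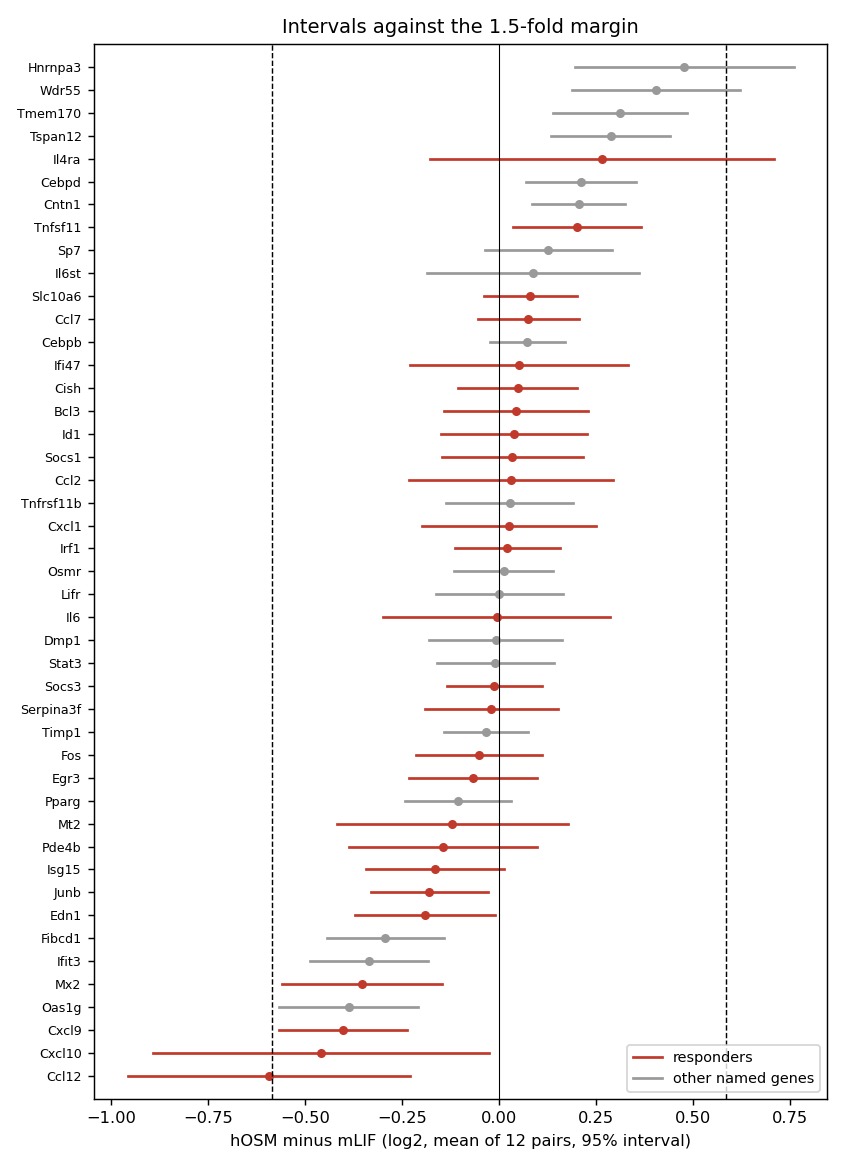
Difference between hOSM and mLIF (log2, mean of 12 pairs) with its 95% interval for 45 named genes, responders in red and other genes in grey, with the 1.5-fold margins dashed. The intervals of Socs3, Ccl7 and Mt2 lie inside the margins, and those of Ccl12, Cxcl10 and Il4ra cross one.

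Of 15 interferon-inducible genes tested, 13 rose with hOSM and 12 with mLIF, where 436 and 388 of all 10739 genes did. Their difference between the ligands depended on the blocks in the fit. Over the 12 pairs 13 were lower with hOSM, where 54.0% of all genes were, and the median difference was -0.11, with 0 genes past the threshold in limma (3 unadjusted). With beadchip and culture as blocks 7 of 15 were lower, where 55% of all genes were, and the median was 0.00062, so the pattern did not hold there. With arrays scaled to their medians, which put the median of all genes at 0.06, 9 of 15 were below 0 and 14 of 15 below that median. In the mean response 13 of the 15 rose, against 5.33% of all genes, and 14 were equivalent, against 99.0%. Ifit3, an antiviral protein gene, was at 10.27 to 12.19 with hOSM (median 10.65) and at 10.20 to 12.57 with mLIF (median 10.91), against 9.53 to 11.25 in controls (median 9.98). All 3 ranges overlapped, and Ifit3 was lower with hOSM in 11 of 12 pairs, by -0.34 ± 0.07 (limma adjusted p = 0.999). Isg15, a ubiquitin-like protein gene, rose by 2.35 ± 0.31 with hOSM and by 2.51 ± 0.32 with mLIF. It differed by -0.17 ± 0.08, and by 0.00 ± 0.17 with those blocks. Beyond the list, the antiviral genes Oas1g and Mx2 were among the 10 genes with the smallest p. Oas1g was lower with hOSM in 12 of 12 pairs (-0.39 ± 0.08) and was detected on 9 hOSM, 10 mLIF and 6 control arrays. It was also lower in 6 of 6 cultures (unadjusted exact sign-flip permutation p = 0.0312, limma adjusted p = 0.997). This rests on the same pairs that named the gene. Mx2 was lower with hOSM in 9 of 12 pairs (-0.35 ± 0.10). Under the beadchip and culture blocks single genes varied, and none of those named here passed the threshold in limma. Oas1g was then at -0.35 ± 0.15, Mx2 at -0.23 ± 0.20, Cxcl9 at -0.365 ± 0.15 and Ifit3 at -0.255 ± 0.15. Of the list, Irf7 was at -0.27 ± 0.135, Gbp2 at -0.0086 ± 0.19 and Igtp at 0.06 ± 0.17.

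The promoters of Isg15 (chr4:156200769-156201068, minus strand) and Ifit3 (chr19:34583279-34583578, plus strand), both GRCm38.p6 from RefSeq, are shown as examples of that list with matches to the motif below. The capitals mark matches, on either strand, to GAAA and GAAA with any 2 bases between them, the letters of an interferon response element; in Isg15 each of the 3 matches overlaps the next:
Isg15: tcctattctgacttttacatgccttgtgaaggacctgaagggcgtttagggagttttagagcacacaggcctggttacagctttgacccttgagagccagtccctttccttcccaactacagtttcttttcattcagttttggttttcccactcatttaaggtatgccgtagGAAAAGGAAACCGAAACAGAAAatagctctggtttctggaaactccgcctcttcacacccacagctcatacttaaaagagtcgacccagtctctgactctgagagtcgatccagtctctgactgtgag
Ifit3: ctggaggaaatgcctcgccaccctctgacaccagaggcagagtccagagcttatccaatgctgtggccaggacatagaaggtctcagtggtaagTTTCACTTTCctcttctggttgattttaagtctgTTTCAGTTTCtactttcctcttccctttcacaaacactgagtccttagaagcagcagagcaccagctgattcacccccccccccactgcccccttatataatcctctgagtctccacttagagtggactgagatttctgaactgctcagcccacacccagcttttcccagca

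This motif was found in 3.44% of all 32851 windows and in 3.06% of the 11166 windows of genes tested. It was in 44.4% of the 18 windows found for the interferon list and in 18.0% of the 111 windows of responders. By gene 8 of the 15 had a match, and the window of Irf7 had 0.

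In the pairs without those blocks, 13 of the 15 listed genes at 6 h were lower with hOSM in KO cells (48.7% of all genes were; median difference -0.19) and 13 in WT cells (48%; median -0.27). At 1 h 7 were in KO cells (53.5%) and 9 in WT cells (59.0%). Irf7, a transcription factor of the interferon response, was among the 2 genes with the smallest p at 6 h in each genotype. In KO cells at 6 h it was at 5.07, 5.52 and 5.59 with hOSM and at 5.95, 6.33 and 6.11 with mLIF, against 4.47, 5.13 and 4.70 in controls. In WT cells at 6 h it was at 5.15, 5.35 and 6.61 with hOSM and at 5.93, 5.78 and 7.51 with mLIF, against 4.87, 4.45 and 4.95 in controls. The hOSM arrays lay below all mLIF arrays in KO cells and overlapped them in WT cells, and every one of these 6 pairs was lower with hOSM. The difference was -0.74 ± 0.13 in KO (limma adjusted p = 1) and -0.71 ± 0.13 in WT (adjusted p = 0.51), and its change between 1 h and 6 h was -0.75 ± 0.13 (adjusted p = 0.40). Of those arrays Irf7 was above background on 0 of 3 with hOSM in KO cells and 1 of 3 in WT cells, and on all 6 with mLIF, and with dim arrays raised to the floor the differences were -0.39 in KO and -0.53 in WT.

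**Figure D4:**
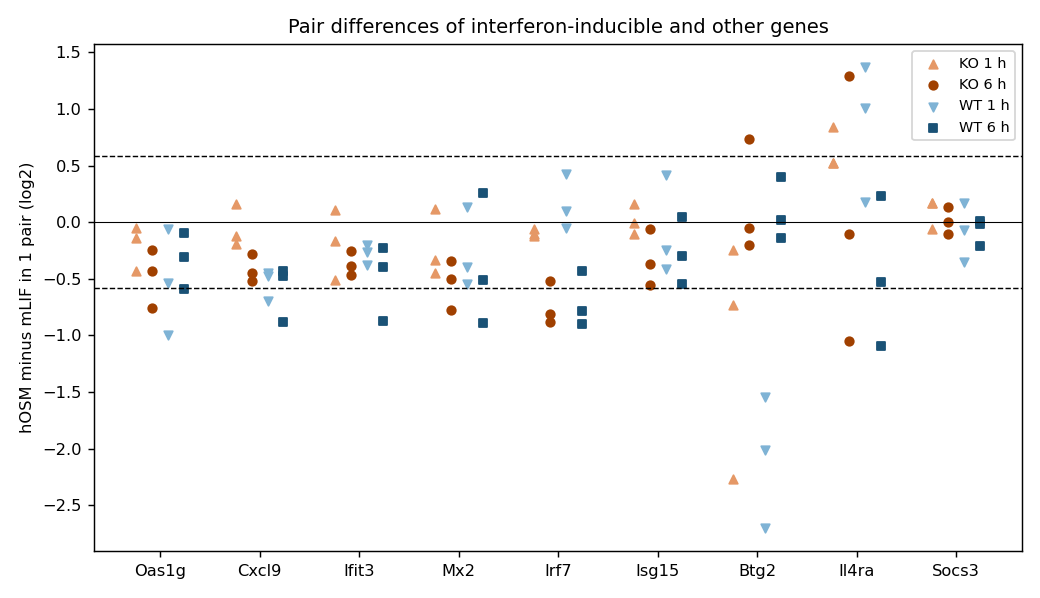
Difference between hOSM and mLIF in each of the 12 pairs (log2) for Oas1g, Cxcl9, Ifit3, Mx2, Irf7, Isg15, Btg2, Il4ra and Socs3, with genotype and time marked and the 1.5-fold margins dashed. Oas1g is below 0 in 12 pairs, Cxcl9 and Ifit3 in 11, and Btg2 lies farthest below 0 in a WT 1 h pair.

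Of 22 immediate early genes, the first to answer a stimulus, 17 were lower with hOSM over the 12 pairs, against 54.0% of all genes, with a median difference of -0.07. By set 16 were lower in KO at 1 h, 17 in WT at 1 h and 16 in KO at 6 h, but 9 in WT at 6 h, where the median was 0.06. In limma 0 of them passed (4 unadjusted). With beadchip and culture as blocks 17 of the 22 were lower, where 55% of all genes were, and the median was -0.057. In the mean response 9 rose and 1 fell, against 5.33% and 5.52% of all genes. Of the 22, 21 were equivalent, near the 99.0% of all genes. Junb, a subunit of AP-1, rose by 1.93 ± 0.15 with hOSM and by 2.11 ± 0.14 with mLIF. Zfp36, which promotes mRNA decay, differed by -0.18 ± 0.07 and Fos, another AP-1 subunit, by -0.05 ± 0.08. Btg2, which restrains cell division, was the member that was not equivalent. In WT cells at 1 h it was at 5.01, 6.69 and 5.97 with hOSM and at 7.71, 8.70 and 7.51 with mLIF, against 5.98, 5.39 and 5.42 in controls. The hOSM arrays overlapped the controls, while every mLIF array lay above both. The difference was -2.08 ± 0.33 (interval -2.79 to -1.38, limma adjusted p = 0.32). It passed in limma without KO 1 h replicate 1 (adjusted p = 0.016) or without the KO replicate 1 cultures (0.0091). The WT 1 h pairs were the same in those fits, and the difference stayed at -2.08. Its SE, from a spread shared by the 4 sets, was 0.231 and 0.204 there, so these passes add no support from the WT arrays. In KO cells at 1 h Btg2 was at 5.68, 6.11 and 7.37 with hOSM and at 7.95, 6.35 and 8.11 with mLIF, against 6.89, 7.04 and 4.96 in controls, where all 3 groups overlapped. At 6 h it was above background on 0 of 12 arrays of hOSM and mLIF.

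The mean difference was above the 1.5-fold margin for a pair of bone matrix genes. Bglap, the osteocalcin gene, was at 5.56 to 11.76 with hOSM (median 7.81) and at 5.37 to 11.03 with mLIF (median 7.19), against 5.33 to 12.35 in controls (median 7.73). The 3 ranges overlapped almost fully, and Bglap was higher with hOSM in 11 of 12 pairs, by 0.64 ± 0.18 (unadjusted p = 0.0033, limma adjusted p = 0.999). Against controls Bglap was at -0.11 with hOSM (limma adjusted p = 0.83) and fell by 0.75 with mLIF (adjusted p = 0.011). Ibsp, the bone sialoprotein gene, differed by 0.66 ± 0.36, with single pairs from -2.17 to 3.18. Neither was equivalent, whereas Col1a1 differed by 0.01 ± 0.09 and Sp7, a transcription factor that osteoblasts need, by 0.13 ± 0.08. Of the 8 osteoblast genes tested 6 were equivalent (99.0% of all genes were). Over the 12 pairs 7 were higher with hOSM and 1 was lower, where 54.0% of all genes were lower. Their median difference was 0.06. With beadchip and culture as blocks 4 of 8 were lower, where 55% of all genes were, and the median was 0.0062. Pparg, the main regulator of fat cells, was at -0.11 ± 0.06. Other genes among the 10 with the smallest p were Fibcd1 at -0.29 ± 0.07 and, higher with hOSM, Wdr55 at 0.40 ± 0.10, Tspan12 at 0.29 ± 0.07 and Hnrnpa3 at 0.48 ± 0.13. Hnrnpa3 was above background on 6 hOSM and 2 mLIF arrays. The 104 genes that were not equivalent had a median SD between pairs of 0.80, against 0.29 over all genes.

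Split by genotype and time, 0 genes differed between hOSM and mLIF in limma in any of the 4 sets of 3 pairs. At an unadjusted p under 0.05 there were 231 in KO at 1 h (2.15%), 619 in WT at 1 h (5.76%), 292 in KO at 6 h (2.72%) and 363 in WT at 6 h (3.38%). The difference was equivalent for 76.1% of genes in KO at 1 h, 66.0% in WT at 1 h, 75.4% in KO at 6 h and 73.5% in WT at 6 h, with a median half-width of the interval of 0.37, against 0.18 over the 12 pairs. The difference passed the test of a change with genotype for 0 genes in limma (391 unadjusted, 3.64%) and with time for 0 genes (434 unadjusted, 4.04%). This does not show that it was the same, since that change was equivalent to 0 within 1.5-fold for 71.7% of genes between genotypes and for 70.4% between times. Ifi205, an interferon-inducible gene, was among the 2 with the smallest p for genotype, at 1.02 ± 0.20 in KO minus WT (adjusted p = 0.84).

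Responders within a set numbered 79 in KO at 1 h (0.736%), 102 in WT at 1 h (0.950%), 197 in KO at 6 h (1.83%) and 165 in WT at 6 h (1.54%). Of these 60 were equivalent in KO at 1 h (75.9%), 57 in WT at 1 h (55.9%), 132 in KO at 6 h (67%) and 112 in WT at 6 h (67.9%). With 3 pairs these shares rest on the processing: leaving out 1 pair or culture gave 43.2% to 81.1% in KO at 1 h, 0% to 62.2% in WT at 1 h, 28.8% to 71.4% in KO at 6 h and 25.9% to 70.7% in WT at 6 h. The number of responders fell to 51 in KO at 1 h without KO 1 h replicate 1. In WT at 1 h it was 62 without WT 1 h replicate 3 and 64, 49 and 46 without the WT replicate 1, 2 and 3 cultures, and in WT at 6 h it was 94 without the WT replicate 2 cultures.

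Against the shared controls 819 genes (7.63%) passed with hOSM and 565 (5.26%) with mLIF, counts whose difference was not tested. Leaving out 1 pair or culture gave 311 to 976 with hOSM and 293 to 607 with mLIF, both lowest without the WT replicate 3 cultures. The response differed between genotypes for 0 genes (0%) with either ligand in limma (410 unadjusted with hOSM, 330 with mLIF) and between times for 348 (3.24%) with hOSM and 461 (4.29%) with mLIF. The count of 0 does not show that the genotypes responded alike. The change with genotype was equivalent to 0 within 1.5-fold for 75% of genes with hOSM and 71.7% with mLIF.

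For scale, mOSM was set against the same mLIF arrays, which the 2 comparisons therefore share. In WT at 6 h 3297 genes (30.7%) differed, 1275 higher and 2022 lower with mOSM, and in WT at 1 h 1 gene (0.00931%) did, Ppp1r15a, named after its value was seen. In KO cells 80 genes (0.745%) differed at 1 h and 224 (2.09%) at 6 h. By other measures hOSM lay farther from mLIF than mOSM did in WT at 1 h. There 24 genes were over 2-fold apart for hOSM minus mLIF and 1 for mOSM minus mLIF. An unadjusted p under 0.05 was reached by 619 and 335 genes, and 66% and 77% were equivalent. In KO at both times and in WT at 6 h more genes were over 2-fold apart for mOSM. These contrasts between ligand pairs were not tested. The difference between mOSM and mLIF changed with genotype for 1755 genes (16.3%) and with time for 346 (3.22%). The KO counts fell to 22 at 1 h without KO 1 h replicate 1 and to 84 at 6 h without the KO replicate 2 cultures, and the count of WT at 6 h to 2030 without the WT replicate 1 cultures.

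**Figure D5:**
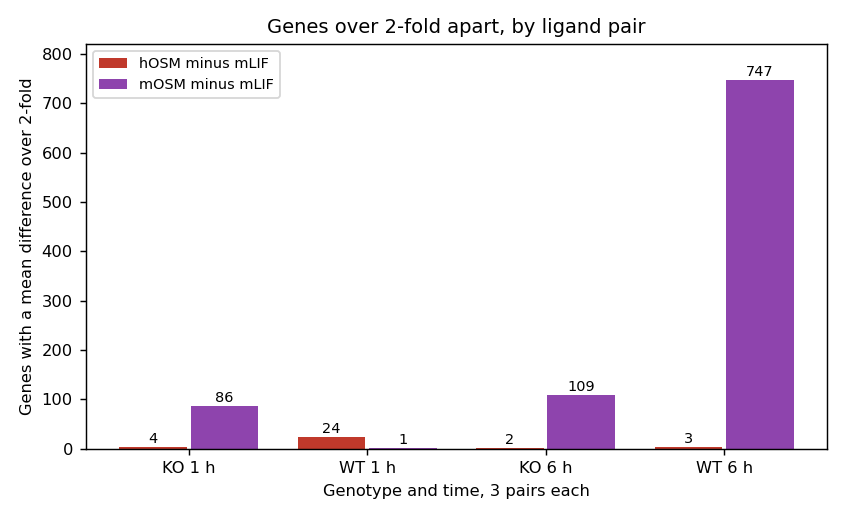
Number of genes with a mean difference over 2-fold (bars from 0) for hOSM minus mLIF and for mOSM minus mLIF, by genotype and time, 3 pairs each. The counts for hOSM minus mLIF are 4 in KO at 1 h, 24 in WT at 1 h, 2 in KO at 6 h and 3 in WT at 6 h, and for mOSM minus mLIF 86, 1, 109 and 747.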

How the data were processed

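Expression was measured on Illumina bead arrays, 48 in all. The values analysed are the deposited log2 values per probe. BeadStudio and limma appear in the submitters' processing notes, with neither version nor role given. Normalizing the deposited bead intensity values with neqc (offset 16) gave the same log2 values within 0.034. The deposited detection p-values served to filter. Of 45281 probes 34885 have 1 gene symbol, 18 several and 10378 none, and 34807 matched RefSeq by Entrez identifier. The filter asked for detection (p below 0.01) in 3 or more of the 48 arrays and left 16799 probes, with the brightest probe for a gene with several (4119 genes), leaving 10739 genes. Median intensities were 116.3 to 169.8 per array, 14231 to 16767 probes were detected per array of the 24, and the number of arrays limits the precision.

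Differences within pairs were fitted across all genes with limma 3.58.1 in R 4.3.3, over 12 pairs and with 4 set means, with Benjamini-Hochberg adjusted p under 0.05. The scripts were tested on simulated data. Arrays of a genotype with the same replicate number were treated as one culture, which the labels do not state, and their deviations from the group means correlated in 12 of 12 pairs (lowest r 0.41), so the pair is the block. The design text gives 3 thawing occasions and the labels 2 thaw dates (8 and 4 pairs), and 0 pairs share a beadchip. Dim arrays were raised to the lowest detected signal of the array for floors. Alternatives were other normalizations, scalings, filters, margins and blocks, single thaw dates, and leaving out each pair or culture. Averages per culture and lists under the beadchip block were added after the data were seen. Named genes were a core list of the pathway and bone, the smallest p of each comparison, the largest responders, responders not equivalent, and members of gene lists. Others (Bglap, Ibsp, Col1a1, Cfb, Ppp1r15a, Kdelr1, Fabp4) were named after their values were seen. The members, lists and rules were chosen with earlier results of these data known.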

Additional observations from a re-analysis of the deposited data

Results flagged for a closer look

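The response to the ligands changed between 1 h and 6 h, by the test of that difference, for 348 genes with hOSM minus control, for 461 with mLIF minus control and for 658 with the mean of both. The difference between mOSM and mLIF changed with genotype for 1755 genes and with time for 346, tested in the same limma fit. The difference between hOSM and mLIF passed these tests for 0 genes in limma each (391 for genotype and 434 for time at an unadjusted p under 0.05). That change was equivalent to 0 within 1.5-fold for 71.7% of genes between genotypes and 70.4% between times, so for the other genes these data do not show likeness. In data outside the comparisons above, 20 of 2673 detected probes without a single gene symbol responded over 2-fold to hOSM and mLIF.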

How the results depend on the processing

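The count of 0 genes between hOSM and mLIF over the 12 pairs held in 35 of 35 alternatives, and none of the 91 named differences over those pairs passed in any. These alternatives overlap and are not independent. The neqc values were nearly the deposited ones, the culture averages were counted more than once, and fits with a pair, culture or date left out had fewer pairs. Without the detection filter 18959 genes were equivalent, as more were tested. Leaving out 1 pair or culture gave 10513 to 10669 equivalent genes, 0 to 1 genes differing in WT at 1 h, 311 to 976 with hOSM and 293 to 607 with mLIF against control, and 103 to 126 responders of which 94.7% to 99.1% were equivalent. By set in the order KO 1 h, WT 1 h, KO 6 h, WT 6 h it gave 51 to 93, 46 to 129, 154 to 223 and 94 to 175 responders, of which 43.2% to 81.1%, 0% to 62.2%, 28.8% to 71.4% and 25.9% to 70.7% were equivalent, and 22 to 92, 0 to 2, 84 to 209 and 2030 to 3532 genes between mOSM and mLIF. Without the replicate block (no pairing) 0 genes differed, 299 passed with hOSM and 300 with mLIF, 60% of responders were equivalent (14.3%, 2.82%, 6.74% and 4.05% by set), KO 6 h had 89 and WT 6 h 74 responders, and mOSM minus mLIF gave 10, 0, 16 and 1355. Blocks of culture on all 48 arrays gave 1420 with hOSM and 1254 with mLIF, and 29.5%, 20.3%, 34.9% and 35.5% equivalent by set. Beadchip and culture blocks gave 1454 and 1535, 12.9%, 3.39%, 21.2% and 26.9%, 1 gene between hOSM and mLIF in KO 6 h (Adam28) and 149 between mOSM and mLIF there. Quantile normalization without background correction gave 57 responders (86 in KO 6 h, 67 in WT 6 h), 98.2%, 88.9%, 94.2% and 91% equivalent, and 340 (KO 6 h) and 3 (WT 1 h) for mOSM minus mLIF. Scaling arrays to their medians put the all-gene median at up to 0.30 (WT 6 h) and gave 302 with mLIF, 79.1% (KO 6 h) and 0% (WT 6 h) equivalent, and 0, 149 and 1685 for mOSM minus mLIF in WT 1 h, KO 6 h and WT 6 h. An intensity trend with a robust prior gave 499 with hOSM and 339 with mLIF. The narrower margin left 79.5% of responders equivalent and 0% in each set, and 2-fold 100%, 96.1%, 98.5% and 95.8% by set. With no fold threshold there were 1165 responders (936 in KO 6 h, 663 in WT 6 h; 79% and 78.6% equivalent), and with the floor 84.9% (KO 6 h) and 71.7% (WT 1 h) were equivalent. The first thaw date alone gave 245 with hOSM and 176 with mLIF, 44.2%, 0%, 32.3% and 26.9% equivalent, and 48, 0, 77 and 2009 for mOSM minus mLIF. The second gave 36 and 53, and 48 responders, 81.2% of them equivalent. The cause of these shifts was not tested. Leaving out a culture or date also left fewer arrays, which was not separated from the choice of culture or date. Genes near background, such as Irf7 and Btg2, are limited by signal.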

Other observations

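Gene groups outside the cytokine pathway were examined in the same 12 pairs. Of 16 genes of the TGF-beta and BMP pathways, which guide bone formation, 6 fell and 2 rose in the mean response, all 16 were equivalent between hOSM and mLIF, and the median difference was 0.04. Of 13 targets of NF-kappaB, a regulator of inflammation, 6 rose and all 13 were equivalent, with 4 lower with hOSM. Of 14 matrix proteases and their inhibitors 4 rose, all 14 were equivalent and 10 were lower with hOSM (median difference -0.03), where 54.0% of all genes were. With beadchip and culture as blocks 8 of these 14 were lower, where 55% of all genes were. Of 16 heat shock and unfolded protein genes 5 rose, 1 fell and all 16 were equivalent, and of 7 hypoxia and glycolysis genes 3 rose and all 7 were equivalent. The 13 Wnt pathway genes (2 fell) and the 12 cell cycle genes (2 fell) were all equivalent. Of 12 adipocyte markers 2 fell and 11 were equivalent, the exception being Fabp4, a fatty acid carrier. Over all genes 99.0% were equivalent, and 5.33% rose and 5.52% fell in the mean response.

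Among 2673 detected probes without a single gene symbol, 0 differed between hOSM and mLIF over the 12 pairs in limma, 85 had an unadjusted p under 0.05, and 2616 were equivalent within 1.5-fold. Adam28, a membrane protease, was higher with hOSM in KO cells at 6 h by 0.93 ± 0.16 (limma adjusted p = 0.044) in the fit with beadchip and culture as blocks.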
